A study of Mus musculus with 8 samples.

Results

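Granule-gene cells are cells of mouse bone marrow cultures that carried the RNA of neutrophil granule and calprotectin genes. They were picked by a rule on 6 genes, Ngp, Ltf, Camp, Lcn2, S100a8 and S100a9. A member needed at least 3 of the 6 detected, and the 6 together had to make up at least 1% of its UMIs (unique molecular identifiers, counted RNA molecules). Of 9196 kept cells, 116 met the rule, which is 1.26%. Kept cells were barcodes in which 300 or more genes were detected and mitochondrial UMIs did not exceed 20%. A barcode listed in several libraries of 1 date stamp was counted only where it had most UMIs. The levels of the 6 genes chose the cells, so these levels are given below as a description and without a test.

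The series compared bone marrow cells with and without CYR61, a matricellular protein, encoded by Ccn1, that binds integrins. Marrow came from the hind limbs of C57Bl/6J mice labelled male and aged 10 weeks. All cells were first grown for 3 days with M-CSF, the growth factor that drives macrophage formation. For the next 24 h, the cells of 4 libraries received no CYR61 (control) and those of 4 received it at 4 µg/mL (CYR61). Libraries were made with HIVE, a method in which cells settle into small wells and their RNA is caught on beads there. Nothing in the labels says whether the libraries of a group came from separate mice, so p-values measure the spread between libraries, which may be technical.

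Neutrophils form in the marrow from promyelocytes, through myelocytes, to segmented cells. Promyelocytes fill primary granules with myeloperoxidase and serine proteases. Myelocytes then make the proteins of secondary granules, and later stages make those of tertiary granules together with the receptors of circulating cells. Cells stop dividing as they leave the myelocyte stage, and the transcription factor C/EBP-epsilon is needed for the secondary granule genes. M-CSF directs marrow cells to macrophages. All libraries here had M-CSF, so its part in the share of granule-gene cells was not tested.

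Several properties of the libraries bear on what follows. The tables listed 5000 barcodes each and held between 1379637 and 16318946 UMIs. The granule-gene cells of a library held between 6261 and 74936 UMIs, and 288966 in all. Barcodes recurred between libraries: 28 of the 116 members (24.1%) had a barcode that was also listed in a library of the other group with the same date stamp, and none had one listed in a library of the other date stamp. In these cells the home library held at least 2.11 times the UMIs of the next listing. Although all libraries are labelled male, Xist, the RNA of the inactive X chromosome, was at 1152 to 1254 UMIs per 1000000 in the other cells of control replicates 2 and 3 and CYR61 replicates 1 and 2, and at most at 1.18 in the remaining 4. Summed, the Y-linked genes Ddx3y, Eif2s3y, Kdm5d and Uty showed the reverse in the other cells. They were at 0.144 to 7.17 where Xist was high and at 323 to 392 in the remaining 4. Both groups held 2 libraries of each kind. CYR61 replicate 3 stood apart: it gave 46 of the 116 cells (39.7%), and the results that rest on it are given with and without it.

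The rule genes differed in how many cells carried them. S100a9 and S100a8, which encode the subunits of the calcium- and zinc-binding protein calprotectin, were found in 116 and 115 of the 116 cells. Ngp (neutrophilic granule protein) was found in 96, Lcn2 (lipocalin 2, which binds bacterial siderophores) in 85, Camp (cathelicidin) in 78 and Ltf (lactoferrin, an iron-binding protein) in 64. All 6 genes were detected in 43 cells, 5 in 26, 4 in 25 and 3 in 22. The 6 genes took from 1% to 12.9% of the UMIs of a cell, with a median of 2.47%. The 10 members just inside the threshold had 1% to 1.21%, and the 10 cells just outside it with at least 3 of the genes had 0.856% to 0.975%. A further 13 cells passed 1% with fewer than 3 genes. In all, 443 other cells carried at least 3 of the genes. The median depth was 1446 UMIs in members (444 to 15602) and 1184.5 in other cells. By library, members were deeper in all but control replicate 4 (893 against 1145.5), for example 4391 against 1054.5 in control replicate 2. Shares of cells with a UMI given below are at these unlike depths unless thinning is stated. The median share of rule-gene UMIs was 5.01%, 4.96%, 4.10% and 7.79% in the members of control replicates 1 to 4 and 4.28%, 2.41%, 2.08% and 3.13% in those of CYR61 replicates 1 to 4, lowest in CYR61 replicate 3.

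Summed over the cells of each library, S100a9 was the most abundant rule gene. Levels are given as CPM, that is UMIs of a gene scaled to a total of 1000000 UMIs for the cells summed. S100a9 was at 13727, 19563, 20444 and 25279 CPM in control replicates 1 to 4 and at 16929, 16106, 10636 and 14316 in CYR61 replicates 1 to 4. In the other cells it was at 61 to 556. Ngp was at 12014, 5263, 3514 and 7005 CPM in the control members and at 6092, 2612, 3523 and 6057 in the CYR61 members. These ranges overlap, and CYR61 replicate 2 was the lowest. Control replicate 3, with only 3 members, had no UMI of Ltf or Camp. There the 6261 UMIs of its members allow a level of up to 479 CPM. Other cells held Ngp at 7.17 to 237 CPM and Ltf at 3.59 to 84.7, with the highest value of each in CYR61 replicate 3.

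Of the 6 genes, Ngp (chr9:110419747-110423012), Ltf (chr9:111019271-111042767) and Camp (chr9:109847379-109849617) lie on chromosome 9, S100a8 (chr3:90668978-90670035) and S100a9 (chr3:90692632-90695721) are neighbours on chromosome 3, and Lcn2 is at chr2:32384633-32388252 (GENCODE vM21, mm10). They are transcribed together in maturing granulocytes, in which C/EBP factors bind many of their promoters, so upstream sequence of Ngp and Ltf is shown here. Windows of 250 bases before the RefSeq start in build GRCm38.p6, read on the gene's strand, were searched for matches on either strand. The stretch printed is the part of the window outside any GENCODE exon of the gene, 189 bases for Ngp (chr9:110419558-110419746) and 229 for Ltf (chr9:111019042-111019270), both on the plus strand and read 5′ to 3′. Capitals mark matches to TTGCNNAA on either strand, a core of the C/EBP site.
Ngp: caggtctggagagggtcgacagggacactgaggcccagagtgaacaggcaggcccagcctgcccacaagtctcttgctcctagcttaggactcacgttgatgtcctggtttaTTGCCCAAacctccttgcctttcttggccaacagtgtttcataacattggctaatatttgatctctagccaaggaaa
Ltf: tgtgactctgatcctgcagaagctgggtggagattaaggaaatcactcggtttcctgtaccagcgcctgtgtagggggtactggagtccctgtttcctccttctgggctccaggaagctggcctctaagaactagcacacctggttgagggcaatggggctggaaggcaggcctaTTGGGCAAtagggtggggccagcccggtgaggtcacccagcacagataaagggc
Ngp held 2 matches, whose first bases were 138 and 11 bases before the RefSeq start. The second lies in the first exon of GENCODE and is not printed. Ltf held 1, at 75 bases, and Lcn2 held 1, at 216 bases. The Lcn2 window lies within the GENCODE span of that gene and begins in an exon, so its match is not upstream of that span. With S100a9, 4 of the 6 rule genes held a match, against 10.8% of the 27025 mouse genes with such a window (9.56% of 32851 windows). Camp and S100a8 held none, which says only that these letters are not in their windows. A match is a description of the sequence and not a bound site.

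The cells were spread unevenly over the libraries. They made up 0.945%, 1.59%, 1.02% and 1.54% of the kept cells of control replicates 1 to 4 (10, 5, 3 and 6 cells). In CYR61 replicates 1 to 4 they made up 0.457%, 0.610%, 9.22% and 1.41% (9, 22, 46 and 15 cells). The 95% Wilson interval of CYR61 replicate 3 was 6.98% to 12.1%, above the intervals of all other libraries, the highest of which ended at 3.66%. Intervals cover counting error only.

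**Figure D1:**
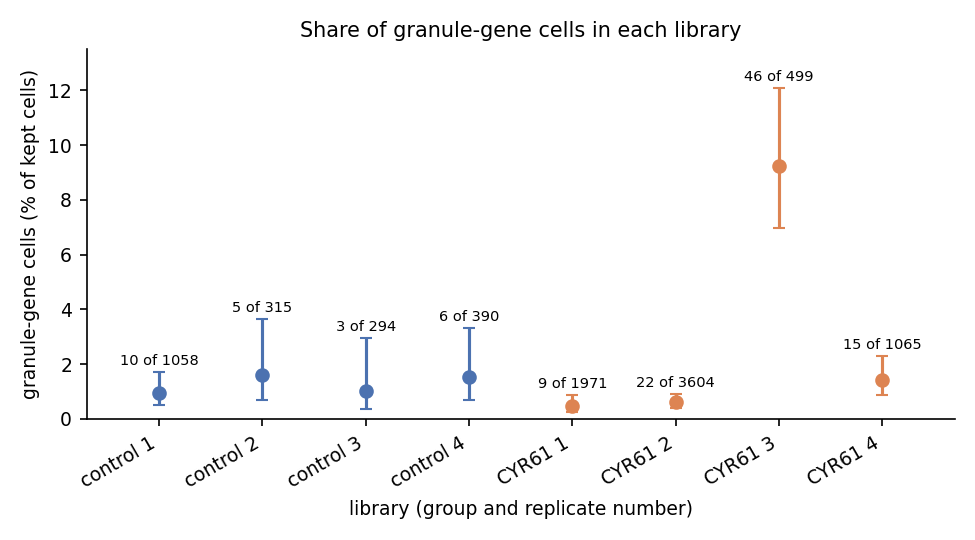
Percentage of kept cells that were granule-gene cells (vertical axis) in each of the 8 libraries (horizontal axis), with 95% Wilson intervals; blue is control, orange is CYR61, and the numbers give members of kept cells. CYR61 replicate 3, at 9.22%, lies above every other library, which lie between 0.457% and 1.59%.

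The mean share was 1.27% ± 0.337 (SD, n = 4) in control libraries and 2.92% ± 4.22 (SD, n = 4) in CYR61 libraries. The difference of 1.65 percentage points did not exceed what separates libraries of 1 group (two-sided exact permutation, p = 0.9143, where 0.0286 is the smallest value possible). Its sign rested on CYR61 replicate 3. Without this library the CYR61 mean was 0.825% ± 0.511 (SD, n = 3) and the difference −0.448 percentage points (exact permutation p = 0.2286). Within the earlier date stamp, which holds replicates 1 and 2 of each group, the difference was −0.733 points, and within the later one, which holds replicates 3 and 4, it was 4.03 points (exact permutation p = 0.3333 and 0.6667, the smallest p for 2 against 2 being 0.3333).

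The label of the cells was checked against markers that the rule did not use. All of Retnlg, Cxcr2, Csf3r, Mmp8, Mmp9, Cd177, Ly6g and Cebpe had UMIs in the granule-gene cells. Presence alone says little for Mmp8, which had a UMI in 56.0% of members and 42.0% of other cells. Mpo, Elane, Prtn3 and Ctsg were also fixed as markers of this lineage, as were Ms4a3 and Fcnb, whose values are not reported here. A UMI of Mpo, Elane, Prtn3 or Ctsg was found in only 5 members (4.31%), and in 1.12% of other cells. Ly6g, the surface protein used to gate mature mouse neutrophils, had only 7 UMIs in 4 cells, in control replicates 1 and 4 and CYR61 replicate 4. Cd177, a neutrophil surface protein, was found in 18 cells and in every library but CYR61 replicate 3. Cebpe, which encodes C/EBP-epsilon, was found in 10 cells. Of the other 9080 cells, 1, 16 and 27 had a UMI of Ly6g, Cd177 and Cebpe. Markers of other marrow lineages were summed per library. The 6 mast cell and basophil genes had no UMI in any member, nor had the erythroid genes Alas2 and Car2. The 8 T and NK cell genes summed to at most 19.7 CPM in any library, with 7 of them at 0. The 3 listed eosinophil genes reached 59.0, the 6 progenitor genes 319.4, and the 5 listed B and plasma cell genes 159.5, with Cd79a, Ms4a1 and Jchain at 0. Ighm, the immunoglobulin mu gene, had 11 UMIs in 8 members and was higher in members than in other cells (log2 difference 1.99 ± 0.63, SE). The 6 megakaryocyte genes reached 1802 in members and 1342 in other cells, both in CYR61 replicate 3, with Itga2b, Gp9 and Gp1bb at 0. The 7 listed dendritic cell genes reached 240.2, with Flt3, Siglech and Xcr1 at 0. The 8 monocyte genes lay at 7000 to 12851 in members, with Vcan at 0, and at 5948 to 12356 in other cells. These sums include Lyz2, which had a UMI in 100% of members and 99.8% of other cells. In the comparison of all genes below, 2 of the 8 were measured. Neither passed, and their median log2 difference was −0.97.

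Macrophage genes were present in many of the same cells. At least 1 UMI of Csf1r, Adgre1, Mertk or Mrc1 was found in 76 of the 116 members (65.5%) and in 78.7% of other cells, and a C1q chain in 61 members (52.6%) and 72.6% of other cells. Csf1r encodes the M-CSF receptor, Adgre1 the F4/80 antigen, and the C1q chains a complement component made by macrophages. In 63 of the 116 cells the 15 macrophage genes fixed as markers took more UMIs than the 6 rule genes. These were 42 of the 46 cells of CYR61 replicate 3 (91.3%) and 21 of the 70 cells of the other libraries (30%). The summed level of the 15 genes in members was 0.259 to 0.623 times that in other cells of the same library in 7 libraries, and 1.13 times in CYR61 replicate 3. That library also had the highest level of the rule genes outside the members: 0.144% of the UMIs of its other cells, against 0.0145% to 0.0631% elsewhere, and 0.304% in its barcodes below the cell filters, against 0.0178% to 0.150%. Only 2 of its 46 cells held 5% or more of rule-gene UMIs. The part of macrophage RNA or free RNA in the membership of these cells was not tested.

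**Figure D2:**
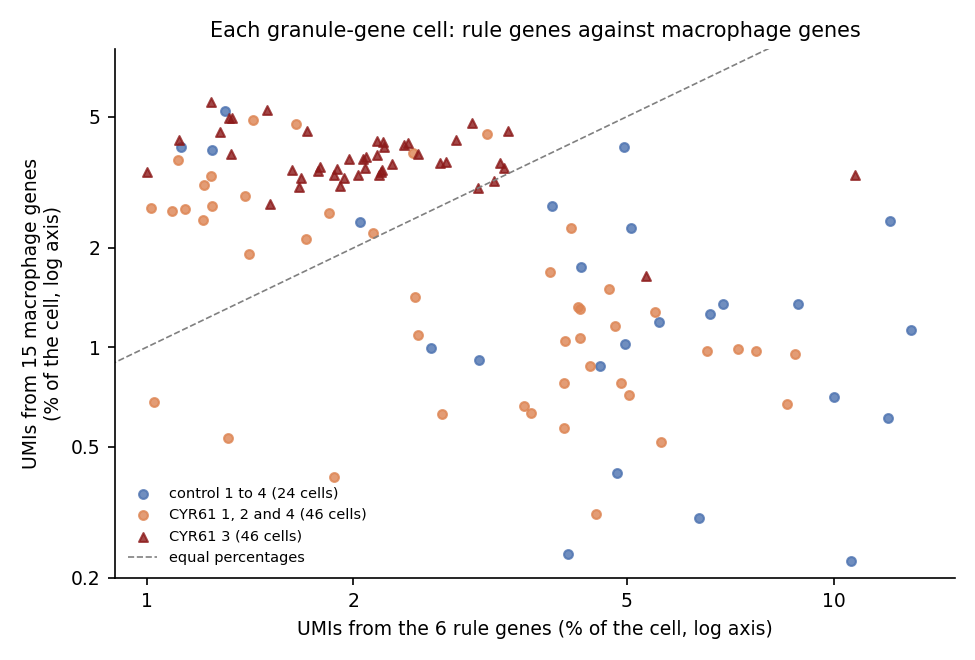
Each of the 116 granule-gene cells by the percentage of its UMIs from the 6 rule genes (horizontal, log axis) and from the 15 macrophage genes (vertical, log axis); blue circles are control cells, orange circles CYR61 replicates 1, 2 and 4, dark triangles CYR61 replicate 3, and the dashed line marks equal percentages. Of the 46 triangles, 42 lie above the line, against 21 of the 70 circles.

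Levels of all genes were then compared between members and other cells of the same libraries, with sums per library and class in edgeR and the library as a block. Because the cells were picked on their own RNA, the differences describe them and are not an independent test. Genes almost absent from other cells passed the expression filter only through their levels in members. Such genes could only be called higher. Of 6071 genes, 227 were higher (3.74%) and 551 lower (9.08%) at an adjusted p under 0.05, and the median log2 difference over all genes was −0.50. The 15 named genes with the largest increase differed by 5.02 to 7.02 on the log2 scale and were higher in all 8 libraries. The 15 with the largest decrease differed by −2.26 to −1.85 and were lower in all 8.

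Of the 8 secondary granule and myelocyte genes measured, 7 were higher in the granule-gene cells and none was lower. Some, such as Wfdc21 and Chil3, were so low in other cells that they passed the filter only through members. For these the direction was fixed by the filter. Chil3, a chitinase-like protein of myelocytes, was at 3495, 2764, 319 and 1421 CPM in the control members and 5126, 2926, 507 and 1160 in the CYR61 members, against 1.2 to 39.1 in other cells (log2 difference 6.38 ± 0.44, SE). Wfdc21, a small secreted protein gene, was at 214 to 1118 in members and 1.73 to 17.7 in others (7.02 ± 0.45). Pglyrp1, which encodes a peptidoglycan-binding protein, differed by 6.54 ± 0.48, and Padi4, the enzyme that citrullinates histones when neutrophils release chromatin, by 6.05 ± 0.47. Within this group Mmp8, neutrophil collagenase, had the smallest difference of the 7, at 674 to 7614 in members against 201 to 864 in other cells. Anxa1, an anti-inflammatory annexin, was the gene of the 8 that did not pass, at 1141 to 2361 in members and 1184 to 2801 in others.

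Genes of tertiary granules and mature neutrophils were higher for 6 of the 10 measured and lower for none. Here too, genes such as Retnlg and Cxcr2 passed the filter only through members, so their direction was fixed by it. Retnlg, a resistin-like secreted protein, was at 185, 797, 2875 and 1523 CPM in control members and 205, 118, 80.1 and 944 in CYR61 members. It was highest in control replicate 3 and lowest in CYR61 replicate 3, and in other cells it stayed at 0.127 to 11.2. Cxcr2, the chemokine receptor by which neutrophils leave the marrow, was at 80.1 to 799 in members and 0 to 4.06 in others. Mmp9, gelatinase B, was at 78.6 to 1757 against 0 to 12.1. Csf3r, the G-CSF receptor, differed by 2.49 ± 0.40 on the log2 scale, while Csf1r differed by −1.46 ± 0.39. Cd177 of the secondary group was among genes too low to pass the filter here. Clec4e and Mxd1, a lectin receptor and a transcriptional repressor of the MYC network, were the other genes called higher.

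**Figure D3:**
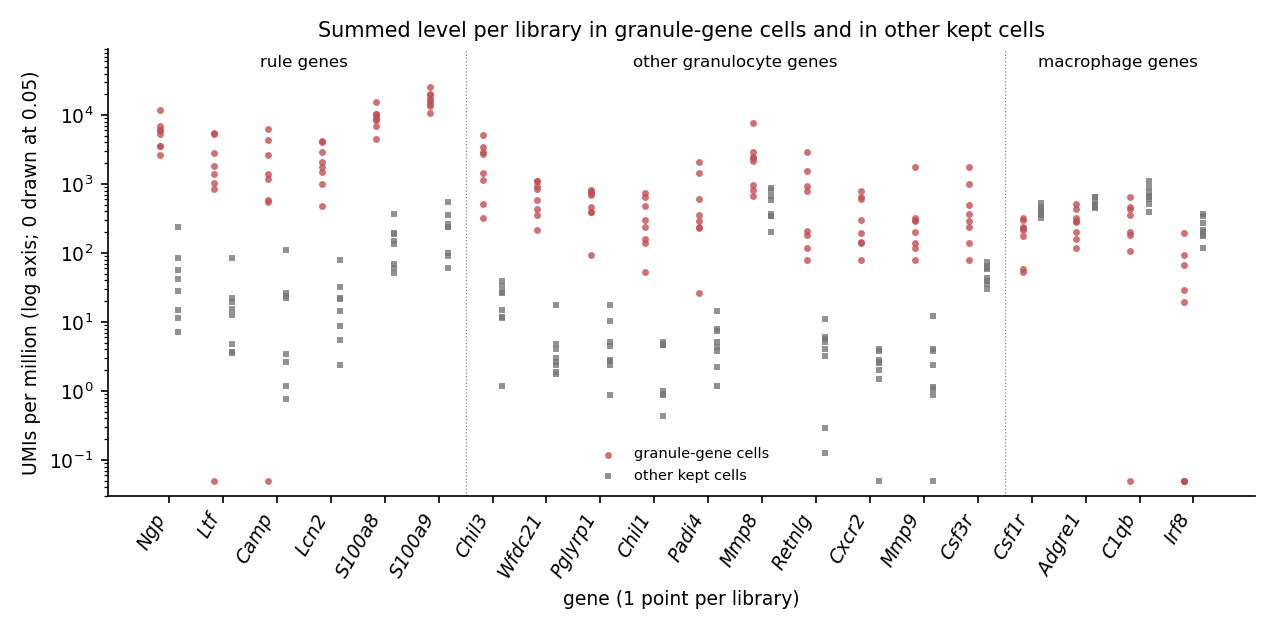
Level of 20 genes in CPM (vertical, log axis, with 0 drawn at 0.05) summed over granule-gene cells (red circles) and over other kept cells (grey squares), 1 point per library. The rule genes on the left chose the cells; for genes such as Retnlg, Cxcr2 and Chil3 in the middle the red and grey points do not overlap, while Csf1r, Adgre1, C1qb and Irf8 on the right are lower or overlap in members.

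Other named genes with a large increase were Serpinb10, a leukocyte serpin gene (6.72 ± 0.54, SE, log2), Cd33, a sialic acid-binding receptor gene (5.27 ± 0.43), and Trpm2, a calcium channel gene of granulocytes (5.02 ± 0.48). Serpinb10 was at 46.3 to 1437 CPM in members and 0 to 6.52 in others, Cd33 at 26.7 to 1757 and 0 to 20.7, and Trpm2 at 59 to 1118 and 3.59 to 11.1. Of 6 measured cytokine and inflammasome genes, Nlrp3, the inflammasome sensor gene, alone was higher (1.86 ± 0.53). None of 10 apoptosis and survival genes passed in either direction. Further genes of phagocyte function differed in part. Ncf1, which encodes the cytosolic subunit p47phox of the phagocyte NADPH oxidase, was higher (1.39 ± 0.34, SE, log2). Cybb, the gene of the catalytic subunit, was at 1278 to 2616 CPM in members and 843 to 2213 in others and did not pass. Among 15 integrin and SYK-pathway genes, the SRC-family kinase gene Fgr was higher (2.51) and Itgb1 lower (−1.13), and 13 did not pass. Itgam and Itgb2, the chains of the integrin Mac-1, to which CYR61 can bind, were at 799 to 2616 and 354 to 1437 in members and 1167 to 1621 and 669.6 to 1142 in others. Ccn1, the gene of CYR61 itself, had no UMI in the members. Of 5 measured granulocyte transcription factors, Cebpd alone passed (2.13 ± 0.54). Spi1, the gene of PU.1, was at 203 to 1437 in members, and its sign turned positive with DESeq2 size factors, as did those of Runx1 and Cybb.

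Macrophage genes were lower in members for 11 of 15 and higher for none. Csf1r was at 231, 53.2, 319 and 305 CPM in control members and 58.6, 236, 173 and 216 in CYR61 members, against 319 to 531 in other cells. Irf8, a factor of the monocyte and dendritic lineages that is not in that list, had the largest named decrease, at 92.6, 0, 0 and 0 CPM in control members and 29.3, 19.6, 66.7 and 197 in CYR61 members against 119.9 to 372 in other cells. Among further genes outside the list, the scavenger receptors Cd36 and Msr1 differed by −2.22 and −2.22 on the log2 scale, the matrix protein gene Spp1 by −1.89, the macrophage elastase gene Mmp12 by −1.85 and the lysosomal protease gene Ctsl by −1.85. Ccnd1, the gene of cyclin D1, which drives entry into the cell cycle, differed by −2.15 and Cd274, the gene of PD-L1, by −2.02. Apoe was at 1991, 797, 159.7 and 1523 in control members and at 967, 962, 3643 and 2714 in CYR61 members, with CYR61 replicate 3 above its own other cells. Leaving that library out, 14 of the 15 macrophage genes were called lower and 8 of 9 secondary granule genes higher. Of 11 tertiary granule and mature neutrophil genes then measured, 7 were called higher and 1, Clec4d, lower.

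Primary granule genes were found in few members. A rule built on genes of later stages may favour cells past the promyelocyte stage, and its part in this was not tested. Of 10 listed primary granule and promyelocyte genes, 2 were measured in the comparison with other cells. None was higher and 1, Ctsc, was lower, with a median log2 difference of −0.73 against −0.50 over all genes. A UMI of Mpo, Elane, Prtn3 or Ctsg, the primary granule enzymes, was found in 5 of 116 members (4.31%) and in 1.12% of other cells. Of their 78 UMIs in members, 2 cells of CYR61 replicate 1 held most, with 16 of Mpo, 20 of Elane, 15 of Prtn3 and 14 of Ctsg. The 16 UMIs of Mpo were all from 1 cell. A UMI of Retnlg, Cxcr2, Mmp9, Csf3r, Il1r2 or Mmp25 was found in 63 members (54.3%) and in 12.4% of other cells. The shares of both sets are unthinned, and members were deeper in most libraries. After thinning each cell to 500 UMIs, which 106 members and 8742 other cells had, Retnlg was found in 11.3% of members and 0.149% of others, Cxcr2 in 12.3% and 0.217%, and Csf1r in 7.55% and 17.5% (unthinned, Csf1r was in 25.9% and 47.4%).

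Genes of dividing cells were present in a minority of members. A UMI of 1 of 9 mitotic genes, such as Mki67, Top2a and Cdk1, was found in 29 members (25.0%) and in 33.4% of other cells. In CYR61 replicate 3, 0 of 46 members had one, at a median depth of 821 UMIs. This allows a share of cells with such a UMI of up to 6.52% and does not limit the share of cells that express the genes. In the other libraries 29 of 70 members had one. Summed over cells, 5 of 12 proliferation genes were higher in members and 1, Pcna, was lower. The 5 were Mki67, Top2a, Pclaf, Rrm2 and Hmgb2, with log2 differences of 1.65, 1.76, 2.02, 1.75 and 2.27. The 18 listed proliferation genes together were lower in members in control replicates 3 (319 against 1134 CPM in other cells) and 4 (914 against 1243). In the remaining libraries this sum was higher in members. Mki67, a nuclear protein of cycling cells, was at 417, 1701, 159.7 and 102 CPM in control members and at 1699, 825, 0 and 1141 in CYR61 members, against 54 to 373 in other cells. CYR61 replicate 3 had none, and control replicate 4 was at the level of its other cells. Of the 29 cells with a mitotic gene, 16 also had a maturation gene and 4 a primary granule gene.

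**Figure D4:**
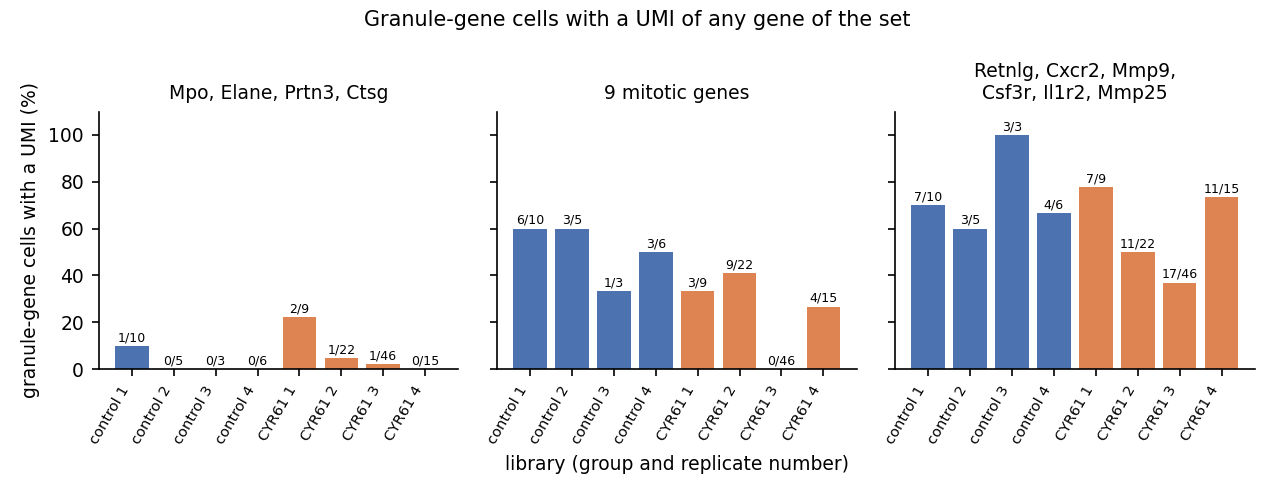
Percentage of granule-gene cells (vertical axis) in each library (horizontal axis) with a UMI of any gene of 3 sets: primary granule enzymes, 9 mitotic genes and 6 maturation genes; blue is control, orange is CYR61, and fractions above the bars give cells. Primary granule genes were found in 5 cells in all, and no cell of CYR61 replicate 3 had a mitotic gene.

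With CYR61, 1 gene changed in the granule-gene cells. The comparison of the 4 CYR61 with the 4 control libraries, on counts summed over members, covered 605 genes that passed edgeR's expression filter. Slfn4 rose (0.165% of the genes tested) and none fell (0%). Slfn4 encodes a Schlafen protein of myeloid cells that is known to respond to interferon, and lies at chr11:83175186-83190216 among other Schlafen genes, with which reads may be shared. It was at 23.1, 159, 159.7 and 102 CPM in control members (1, 3, 1 and 1 UMIs). In CYR61 members it was at 1172, 1178, 721 and 1318 (40, 60, 54 and 67 UMIs). Every CYR61 library was above every control library. Slfn4 passed the expression filter only through its levels in the CYR61 libraries, so the gap between the groups is not independent of the filter. The log2 fold change was 3.71 ± 0.68 (SE; edgeR quasi-likelihood test, Benjamini-Hochberg adjusted p = 0.0142), and DESeq2 also called this gene alone. Of the 605 genes, 28 had an unadjusted p under 0.05 in edgeR, 13 higher and 15 lower, and for 26 (4.3%) the 2 groups did not overlap.

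The Slfn4 call depended on several choices. Its fold change was positive in all 24 alternatives (1.90 to 5.03 on the log2 scale), with adjusted p from 0.000324 (DESeq2) to 0.998 (edgeR), and 15 of them kept the call. It was lost without control replicate 1 (adjusted p = 0.082), control replicate 4 (0.0803), CYR61 replicate 2 (0.0619) or CYR61 replicate 4 (0.0676), and with at most 10% mitochondrial UMIs (0.0553), all in edgeR. Without CYR61 replicate 3 edgeR gave an adjusted p of 0.0019. When every listing of a shared barcode was kept, the fold change was 1.90 (adjusted p = 0.998), and with only barcodes listed once in a date it was 5.03 (adjusted p = 0.0349, edgeR). Within the earlier date it was 4.06 and within the later date 3.28, neither past the threshold.

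In the other cells Slfn4 was at 1.01 to 2.36 CPM in control libraries and 11.5 to 146 in CYR61 libraries. The difference between the 2 changes did not pass (log2 −0.19 ± 0.87, SE; edgeR adjusted p = 0.977), and its SE leaves room for a difference in either direction. In each of the 8 libraries the members were above the other cells. In the control libraries this says little, since a single UMI in members already lies above the level of the other cells. Over both groups its log2 difference between members and other cells was 4.80 ± 0.50 (SE). A UMI of Slfn4 was found in 37 members (31.9%) and 4.19% of other cells, and after thinning in 23.6% and 1.21%. Of the other 31 interferon genes measured in that comparison, Bst2, Ifi204, Ifi209, Slfn5 and Stat2 were lower in members and none was higher.

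Other genes of the type I interferon response had too few UMIs in members for a test gene by gene: 4 of the 45 listed genes passed the filter, and 18 had no UMI in the control members. Their sums are therefore given as values without a test. Without Slfn4, the 44 genes were at 1227, 1223, 2236 and 1523 CPM in members of control replicates 1 to 4 (53, 23, 14 and 15 UMIs). They were at 4920, 5441, 8407 and 9164 in CYR61 replicates 1 to 4 (168, 277, 630 and 466 UMIs). All CYR61 libraries were above all control libraries, and the later date was above the earlier within CYR61. There the earlier libraries are also those with Xist, so date and this difference cannot be told apart. The means were 1552 ± 477 and 6983 ± 2115 (SD, n = 4 each). In the other cells they were 1559 ± 114 and 10029 ± 3382, which is the same direction. The 15 macrophage genes in members lay at 7187 to 21134 CPM in control and 7879 to 35057 in CYR61 libraries, highest in CYR61 replicate 3. The part of RNA from other cells in the interferon sums of members was not tested.

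Single members of the list show how few molecules stand behind these sums. Irf7, the factor that amplifies interferon transcription, had no UMI in control members and 4, 13, 26 and 16 in CYR61 members. Rsad2, the antiviral enzyme viperin, had 2, 0, 0 and 0 UMIs in control members and 11, 9, 16 and 28 in CYR61 members. Oasl2, an oligoadenylate synthetase-like gene, had 0, 2, 0 and 0 in control and 13, 14, 26 and 15 in CYR61 members. Its log2 fold change was 3.54 ± 0.97 (SE) and did not pass (edgeR adjusted p = 0.436). Oasl2, like Slfn4, passed the expression filter only through the CYR61 libraries. Genes of this response carry the interferon-stimulated response element in many promoters. Isg15, a ubiquitin-like modifier gene, is shown as an example, with matches to its core on either strand in capitals (GAAA, any 2 bases and GAAA again), in the 250 bases before its RefSeq start (GRCm38.p6, chr4:156200819-156201068, minus strand).
Isg15: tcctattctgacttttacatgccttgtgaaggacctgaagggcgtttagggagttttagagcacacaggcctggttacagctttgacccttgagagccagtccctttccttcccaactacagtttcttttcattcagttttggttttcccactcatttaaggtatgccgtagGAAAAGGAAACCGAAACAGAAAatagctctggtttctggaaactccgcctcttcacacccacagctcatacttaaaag
Its 3 overlapping matches began 78 bases before the start. Of the 33 listed genes with a window, 16 held this motif, against 3.46% of all mouse genes (2.98% of windows). The Slfn4 window held none, nor did any of the rule genes.

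**Figure D5:**
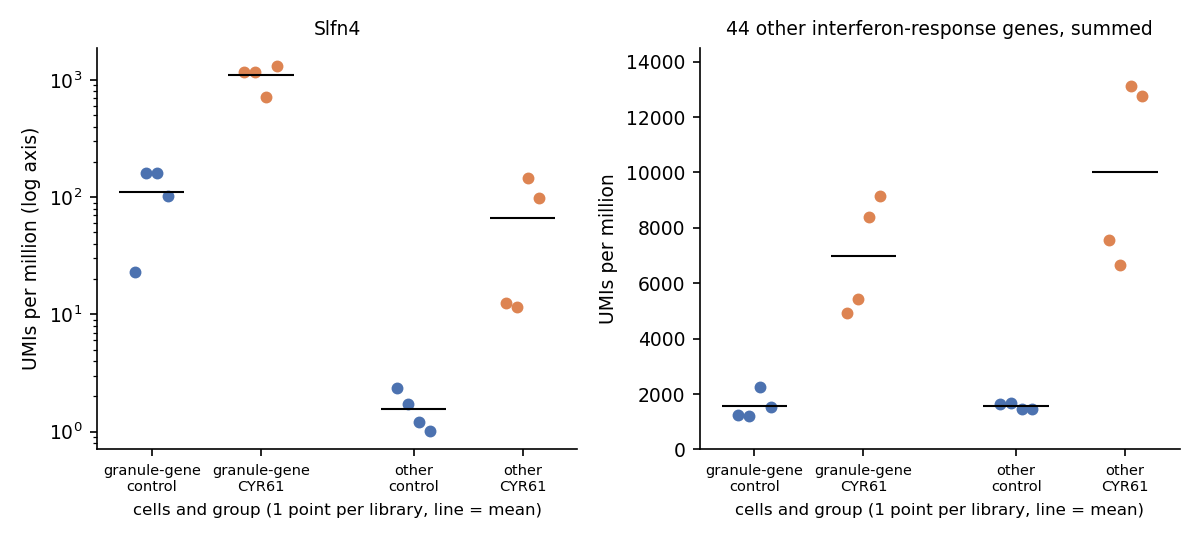
Slfn4 (left, log axis) and the sum of the 44 other interferon-response genes (right) in CPM, in granule-gene cells and other kept cells of control (blue) and CYR61 (orange) libraries; each point is a library and the line is the mean. In granule-gene cells the CYR61 points lie above all control points in both panels, and Slfn4 lies higher in granule-gene cells than in other cells of the same group.

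Among genes without a call, those with the smallest p pointed down for Plcb2, a phospholipase C, Pram1, an adaptor protein of granulocytes, and Adpgk, an ADP-dependent glucokinase. Plcb2 was at 556, 691, 1278 and 1015 CPM in control members and 381, 216, 107 and 59 in CYR61 members, with no overlap (log2 −1.99 ± 0.59, SE; edgeR adjusted p = 0.469). Pram1 was at 486, 532, 479 and 1929 in control and 205, 177, 26.7 and 295 in CYR61 members (edgeR adjusted p = 0.614). Adpgk was at 532, 1595, 799 and 1827 in control and 410, 255, 120.1 and 452 in CYR61 members (edgeR adjusted p = 0.614). None of the 3 passed. None of the 8 secondary granule genes or 9 tertiary granule genes tested passed, with medians of −0.70 and −0.52 against 0.11 over all genes. Without CYR61 replicate 3 these medians were −0.57 and −0.04. All 7 macrophage genes tested were positive (median 0.60), with none called, and 3 of them, Cd68, Gpnmb and Lgals3, turned negative without that library.

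The difference between the CYR61 change in members and in other cells was tested for 7492 genes. Ifit2, an interferon-induced gene, was the 1 gene called, with a smaller change in members (0.0133% of the genes called lower, 0% higher). The log2 difference was −4.44 ± 0.97 (SE; edgeR adjusted p = 0.0333). It rested on control replicate 3, whose 3 members held 11 UMIs of Ifit2 (1757 CPM), while the members of control replicates 1, 2 and 4 held 1, 0 and 0. CYR61 members held 2, 11, 45 and 22 UMIs, or 58.6, 216, 601 and 433 CPM. In other cells Ifit2 was at 6.04 to 19.8 in control and 340.5 to 1314 in CYR61 libraries. Without control replicate 3 the difference was −1.39 (edgeR adjusted p = 0.966). Over 20 alternatives it lay between −5.48 and −1.22, with adjusted p from 0.000886 to 1.0, and 6 kept the call. DESeq2 called no gene, 420 genes had an unadjusted p under 0.05 in edgeR (367 higher and 53 lower). The median difference over all genes was 0.56, so the split of these genes is not centred on 0, and DESeq2 size factors moved the differences by a median of −0.21.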

How the data were processed

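The 8 deposited tables hold raw UMI counts per gene and barcode, with 32249 genes over all tables and 5000 barcodes in each, per the file headers and from their whole-number values. The genome build was mm10, per the submitters' processing notes, while for the aligner, counter and annotation this is not given in the sources used here. Library totals were 1379637 to 16318946 counts. Because 5000 barcodes were listed per table, empty wells had to be removed. Barcodes with at least 300 genes and at most 20% mitochondrial UMIs were kept, in the table of their date stamp with most UMIs. The date stamps stand in the names of the deposited tables, and what they date is not stated. No doublet caller was run. An alternative left out the 5% of cells with most UMIs.

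Counts were summed per library and class and fitted with edgeR 4.0.16 (TMM, filterByExpr, quasi-likelihood test, Benjamini-Hochberg adjustment, threshold 0.05) in R 4.3.3. The class fit had the library as a block, the CYR61 fit in members had the agent alone, and the difference fit had a term per library, the class and the class by agent interaction. DESeq2 1.42.0 was an alternative. Fits were tested on simulated data. CPM values are counts over all UMIs of the summed cells, scaled to 1000000. Shares of cells were compared with an exact permutation test over libraries (scipy 1.17.1, Python 3.11.15). Other alternatives changed the member threshold, the cell filters, the handling of shared barcodes, the expression filter and the libraries used.

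The members, gene lists and tests were chosen with earlier results of these data known. Named genes of the class comparison were the 15 largest increases and the 15 largest decreases among genes called, averaging 200 CPM or more in the higher class and with 1 direction in every library. For the other fits they were up to 10 called genes in each direction with at least 100 CPM in the higher group, and the 5 smallest p-values where fewer passed. Rule, mitochondrial and ribosomal genes and unnamed gene models were left out of these. Members of the granule, transcription factor and other fixed lists were added by purpose. Irf7, Rsad2 and Hmgb2 were named after their values were seen. Control and CYR61 libraries share replicate numbers in the labels. Deviations of same-numbered libraries from their group means correlated at −0.20, 0.21, −0.12 and 0.06, so the numbers were not taken as pairs. Gene positions are from GENCODE vM21 on mm10 and promoter windows from RefSeq, GRCm38.p6. Of the listed genes, 15 are not in the tables, and some results are not reported here. Low counts limited the CYR61 fit in members to 605 genes, and intervals cover counting error only, since cells of a library are not replicates.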

Additional observations from a re-analysis of the deposited data

Results flagged for a closer look

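In CYR61 replicate 3, granule-gene cells made up 9.218% of kept cells, far from the 0.457% to 1.41% of the 3 other CYR61 libraries. In the same library the macrophage genes of members were at 1.13 times the level of other cells, and rule genes took 0.304% of UMIs in barcodes below the cell filters. Their part in the share was not tested.

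Ifit2 was at 1757 CPM in the members of control replicate 3, from 11 UMIs summed over its 3 members, against at most 23.1 in the other control libraries. It was also the gene whose CYR61 change differed between granule-gene cells and other cells, by −4.44 on the log2 scale. Oasl2 was at 106.3 CPM in the members of control replicate 2, from 2 UMIs, and at 0 in the other control libraries. Pram1 was at 1929 CPM in the members of control replicate 4, against 479 to 532 in the other control libraries. Such gaps were looked for in 26 groups of 4 libraries and found in 4, where chance gives about 1 in 20 for normally distributed values, which counts near 0, as for Oasl2 and Ifit2, are not.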

How the results depend on the processing

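The share difference between CYR61 and control kept its sign in 17 of 20 alternatives. Among these it was 0.110 percentage points with at most 10% mitochondrial UMIs, where the control mean was 3.12%, and 0.548 with a 2% threshold. It turned to −0.2999 percentage points with a 5% threshold, −0.4477 without CYR61 replicate 3 and −0.7327 in the earlier date alone. Without 1 library each it ranged from −0.448 to 2.47. With the replicate block it was 1.65 (exact permutation p = 1.0).

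The number of genes changed with CYR61 in members, 1 in edgeR, was 2 with a 0.5% threshold (Ly6e and Slfn4) and 5 with no expression filter (Il1b, Irf7, Ly6e, Olfm4 and Slfn4). It was 0 with at most 10% mitochondrial UMIs, with every listing kept, with the replicate block and in either date alone, and 0 to 2 without 1 library each. With the replicate block Slfn4 had a log2 fold change of 3.74 (edgeR adjusted p = 0.141).

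Of genes that differed between granule-gene and other cells, 227 higher and 551 lower, the counts were 70 and 237 with a 5% threshold and 521 and 938 with every listing kept. They were 71 and 52 with barcodes listed once in a date, and 399 and 1394 without the expression filter. The lower count alone moved to 251 and 1007 with thresholds of 0.5% and 2%, to 333 without the cells with most UMIs and to 140 with at least 10 member cells per library. Without 1 library each, 160 to 294 were higher and 206 to 686 lower. The lower count was 337, 255 and 360 without control replicates 1, 2 and 4, and 206, 285 and 277 without CYR61 replicates 1, 2 and 4.

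The single gene whose CYR61 change differed between the classes was not called (count 0) with thresholds of 0.5% and 2%, at least 500 genes, at most 10% mitochondrial UMIs, either handling of shared barcodes, DESeq2, no expression filter or at least 5 member cells. Without 1 library each the count was 0 to 2, with C3ar1 and Ifit2 called without control replicate 1 and none without control replicates 3 and 4 or CYR61 replicates 1, 2 and 4. The 5% threshold and the minimum of 10 member cells left fewer than 2 libraries in a group for both CYR61 fits and were not run. Except where given above, the cause of a shift was not tested. Low counts limit all gene-level results: control members held 78122 UMIs in all.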

Other observations

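Some genes of granulocytes and monocytes were spread unevenly over the granule-gene cells. Olfm4, a secondary granule protein made by a subset of neutrophils, had 80 UMIs in 31 cells. Of these, 24 were in CYR61 replicate 2 and 56 in CYR61 replicate 3, and the members of the other 6 libraries had none. The 78122 UMIs of control members allow up to 38.4 CPM, and those of CYR61 replicates 1 and 4 up to 87.9 and 59.0 each. In other cells Olfm4 was at 84.7 CPM in CYR61 replicate 3 and at most at 1.01 elsewhere. Whether free RNA holds part of it in that library was not tested.

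Il1b, the gene of interleukin-1 beta, had 28, 2, 14 and 34 UMIs in members of CYR61 replicates 1 to 4 and 1 UMI in those of control replicate 2, all in 8 cells. It was too low for the expression filter. Ly6c2, a surface protein gene of monocytes and immature granulocytes, had a UMI in 33 members, and 2 UMIs in all in the 46 members of CYR61 replicate 3. Cd48, a surface receptor gene of leukocytes, had no UMI in control members and 3, 7, 25 and 7 in CYR61 members, and its difference between the classes did not pass.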
